A study of Mus musculus with 4 samples.

Results

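Rab37 knockout (KO) and wild-type (WT) immune cells of normal mouse lung were compared gene by gene, on 1 library each. The 2 libraries held 9968 of the 13344 cells of the series that passed a minimum of 200 genes and a limit of 10% mitochondrial UMIs (unique molecular identifiers, each counting 1 captured RNA molecule). WT contributed 5242 cells and KO 4726. Both groups were C57BL/6 mice that had received Matrigel, a basement membrane gel, without tumor cells, and lungs were taken at day 14. Lung tissue was digested with collagenase and dispase, live CD45-positive cells were sorted, and 3' libraries were made with the 10x Genomics v2 chemistry. The other pair of libraries in the series came from mice given cells of the mouse lung carcinoma line LLC and is used below only as a second look at the same genotypes. The part of Rab37 that the KO allele lacks, the cells in which it is lost and the number of animals per library are not given in the sources used here.

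Rab37 belongs to the Rab proteins, small GTPases of vesicle traffic. They switch between a GTP-bound and a GDP-bound form and, when bound to GTP, recruit the tethers and motors that bring a vesicle to its target membrane. Rab37 sits on secretory vesicles and is known for regulated exocytosis, the release of stored or newly made cargo, and its closest relative is Rab26. Lung leukocytes release much of their cargo this way: neutrophils from granules, natural killer (NK) and T cells from lytic granules, and alveolar macrophages as cytokines. The comparison asks which transcripts differ between genotypes in lung that carries no tumor.

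Depth was close in the 2 libraries, with 36525943 UMIs in WT and 34750859 in KO, a median of 5178 and 5524.5 UMIs per cell and a median mitochondrial share of 3.67% and 4.23%. Scrublet called 3.41% of WT and 1.69% of KO cells doublets, which were kept, and the 2 libraries shared 8 cell barcodes. Each library held cells with Xist and cells with Y-linked RNA, so each pooled cells of at least 1 female and 1 male source, and 42.3% of the sexed cells in WT and 51.2% in KO were Y-positive. The cells of the 2 sexes therefore gave a second reading of the genotype within the same libraries, although not an independent preparation. With 1 library per genotype no test was possible. Levels are CPM, UMIs summed over cells and scaled to a common library total, ratios are KO over WT, and the range given with a ratio is its exact 95% interval, which covers counting error only, not the difference between animals or preparations. A gene counted as past the fold at a ratio of at least 1.5, or the same fold lower, with at least 100 UMIs over both libraries.

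Cells were assigned to a lineage by 1 gene each: Cd3e for T cells, Cd79a for B cells, Ncr1 for NK cells, Csf3r for neutrophils, Flt3 for dendritic cells and Plet1 for alveolar macrophages. A cell needed at least 1 UMI of its gate gene and none of the other 5. The neutrophil gate held 10.3% of WT cells (539 cells, Clopper-Pearson 95% interval 9.47% to 11.1%) and 14.4% of KO cells (679 cells, 13.4% to 15.4%). The alveolar macrophage gate held 15.7% (14.7% to 16.7%) and 12.8% (11.8% to 13.7%), and the T gate 24.4% (23.2% to 25.6%) and 26.5% (25.3% to 27.8%). B cells took 13.8% and 13.7%, NK cells 5.44% and 4.49%, and dendritic cells 1.77% and 1.57%, each pair with overlapping intervals. The sort and the digestion can set such shares, and with 1 library each they are descriptions of these libraries. Checked against marker lists, the summed level of 7 neutrophil markers in the neutrophil gate was 55275 CPM in WT and 81296 CPM in KO, and that of 8 alveolar macrophage markers in the alveolar macrophage gate 18386 and 18647 CPM. S100a8 and S100a9 made up most of the neutrophil sum, so it is not a check apart from their own levels, given below. T markers in the T gate summed to 3802 and 3625 CPM and NK markers in the NK gate to 15534 and 13290.5 CPM. In 2 gates another list came close to or above the gate's own: B markers in the B gate stood at 6406 and 6366 CPM beside plasma cell markers at 6499 and 3699, and dendritic markers in the dendritic gate at 1326 and 1498 CPM beside epithelial markers at 1255 and 1548. Most of that epithelial sum was the club cell gene Scgb1a1, and 1 cell held 87.5% of its WT UMIs and 1 cell 76.9% of its KO UMIs.

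**Figure D1:**
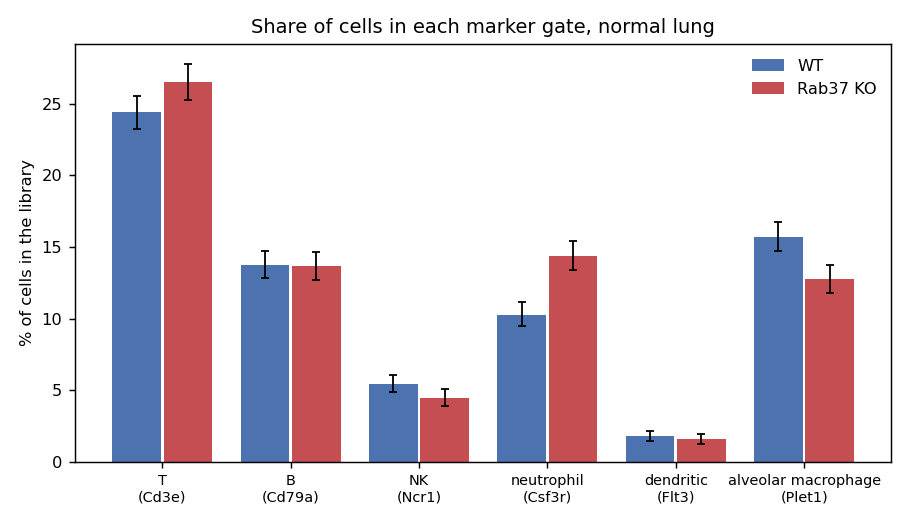
Share of cells in each marker gate, in percent of the library (y axis), for the WT (blue) and Rab37 KO (red) normal lung libraries. Bars are the shares of 1 library each and error bars exact binomial 95% intervals, which do not overlap for neutrophils (10.3% and 14.4%) and alveolar macrophages (15.7% and 12.8%).

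The deleted gene was nearly absent from the KO library. Rab37 gave 314 UMIs in 282 WT cells (8.60 CPM) and 13 UMIs in 11 KO cells (0.374 CPM), a ratio of 0.0435 (0.0229 to 0.0755). NK cells carried the highest WT level, 59.7 CPM against 2.88 CPM in KO (69 and 3 UMIs), and T cells the next, 18.0 against 0.633 CPM (128 and 5 UMIs). In B cells 12 UMIs in WT stood against 0 in KO, which with a floor of 3 counts is at least 3.87-fold lower. Alveolar macrophages held 13 and 4 UMIs (ratio 0.358, 0.0851 to 1.16), neutrophils 3 and 0 and dendritic cells 0 and 0, so Rab37 was too rare in these gates to compare. The ratio was 0.0262 in Xist-positive and 0.0502 in Y-positive cells.

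Rab37 occupies chr11:115091431-115162236 on the plus strand of mm10. Of 74 annotated genes within 1 Mb, 44 had enough UMIs, and 2 of these lay past the fold on the higher side, none on the lower (over all genes 5.87% lay higher and 1.03% lower). The other 42 ranged from 0.807 to 1.36. Cd300lf, an inhibitory receptor gene that lies inside Rab37 on the opposite strand (chr11:115116214-115133992), stood at 97.0 CPM in WT and 89.8 CPM in KO, a ratio of 0.926 (0.882 to 0.972); whether the counting used strand is not stated. Smim6, a small membrane protein gene, had 40 and 79 UMIs (ratio 2.08, 1.40 to 3.12), with 17.7 in Xist-positive and 0.570 in Y-positive cells. Its ratio was 1.20 without cells rich in epithelial, endothelial, fibroblast or erythroid RNA. In the T gate 3 neighbouring Cd300 receptor genes of myeloid cells were past the fold on the lower side: Cd300a at 0.505, Cd300ld at 0.429 and Cd300c2 at 0.550, with 43 to 152 UMIs in a library. With gates drawn from marker lists Cd300a and Cd300ld were at 0.693 and 0.681, short of the fold. Cd300c2 was also lower in B cells, at 0.657 (0.450 to 0.952), and at 0.815 with the marker-list gate. Unk, an RNA-binding protein gene, lay the other way in T cells, at 6.06 CPM in WT and 10.8 CPM in KO, a ratio of 1.78 (1.22 to 2.63).

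The other neighbour past the fold was the gene that follows Rab37 directly. Slc9a3r1 encodes NHERF1 (also EBP50), a PDZ scaffold that ties membrane proteins to ezrin and the actin cortex, and it begins 1104 bases beyond the end of Rab37, at chr11:115163341-115181181 on the same strand. Over all cells it stood at 69.1 CPM in WT and 107 CPM in KO, a ratio of 1.54 (1.47 to 1.62), with 1.66 in Xist-positive and 1.52 in Y-positive cells. By lineage the ratio was 1.91 (1.72 to 2.11) in alveolar macrophages, 1.89 (1.47 to 2.45) in B cells, 1.60 (1.31 to 1.96) in NK cells and 1.54 (1.34 to 1.78) in neutrophils. In T cells it was 1.01 (0.891 to 1.14), so the higher level was not seen in every lineage. Dendritic cells had 31 and 57 UMIs, under the minimum. When gates were drawn from marker lists instead of 1 gene, the neutrophil ratio was 1.35. In the tumor pair Slc9a3r1 was again higher, 76.9 against 198 CPM over all cells.

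The 250 bases before the annotated start of Slc9a3r1 are shown because they fall in the stretch between the deleted gene and the neighbour that differed (RefSeq, GRCm38.p6, chr11:115163091-115163340, plus strand). Capitals mark the GC box GGGCGG, searched on both strands without regard to overlap with other motifs; on the minus strand it reads CCGCCC.
Slc9a3r1: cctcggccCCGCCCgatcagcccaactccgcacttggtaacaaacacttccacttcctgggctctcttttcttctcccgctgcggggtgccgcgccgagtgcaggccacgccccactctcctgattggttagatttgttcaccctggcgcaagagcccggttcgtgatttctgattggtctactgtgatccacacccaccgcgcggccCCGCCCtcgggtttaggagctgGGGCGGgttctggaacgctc

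The window holds the motif 1 time on the plus and 2 times on the minus strand, has a GC content of 62.8% and contains 20 CG pairs. Of 32851 RefSeq promoters of the same length, 32.7% hold the motif, and the medians are 52.4% GC and 6 CG pairs. The match describes these letters only, and the RefSeq table used here had no entry for Rab37.

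**Figure D2:**
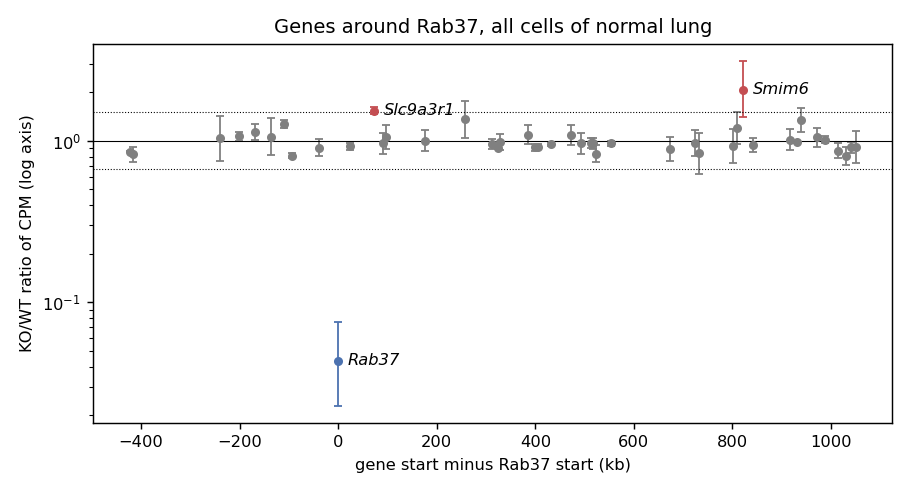
KO/WT ratio of CPM over all cells of normal lung (y axis, log scale) for Rab37 and the 44 measured genes around it, by distance of the gene's start from the Rab37 start (x axis, kb). Bars are exact 95% counting intervals and dotted lines mark 1.5-fold; Rab37 lies at 0.0435, Slc9a3r1 at 1.54 and Smim6 at 2.08, and the other 42 genes lie between the lines.

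Of 17 measured Rab, Munc13, synaptotagmin-like, syntaxin and SNARE genes, 1 was past the fold on the higher side over all cells and 0 on the lower, close to the 5.87% and 1.03% of all genes; the list's median log2 ratio was 0.05 against 0.02 over all genes. The gene past the fold was Rab27b, a GTPase of granule docking, at 3.70 CPM in WT and 6.47 CPM in KO (ratio 1.75, 1.41 to 2.18, 2.56 in Xist-positive and 1.52 in Y-positive cells). In NK cells Rab27b stood at 29.4 CPM in WT and 66.2 CPM in KO, a ratio of 2.25 (1.47 to 3.50). Over all cells again, the syntaxin Stx11, needed for lytic granule release, was at 1.34 (1.24 to 1.44). Rab27a, a close relative of Rab27b, was at 1.04 (0.929 to 1.16), and Vamp8, a vesicle SNARE, at 0.937 (0.909 to 0.966).

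Over all cells, 697 of 11877 genes (5.87%) lay past the fold on the higher side in KO and 122 (1.03%) on the lower side. Of the lists, the neutrophil granule and maturation list had 9 of 16 measured genes on the higher side and 0 on the lower, the inflammatory list 2 and 2 of 16, and the alveolar macrophage list 0 and 1 of 20. The genes with the largest ratios are given next; they do not stand for the rest of the 819. A sum over all cells moves both with how many cells of a type were captured and with RNA per cell, and the 2 cannot be told apart in it. For 488 of the 697 higher genes, the ungated KO cells held more of the UMIs than any gate did. The same count was not made over all measured genes. Ungated cells held 12.7% of all KO UMIs, which is a share of UMIs and not of genes. Of the 203 higher genes that could be measured in a gate, 137 were past the fold the same way in at least 1 gate, and of 65 such lower genes 50 were. The gates are part of the sum over all cells, so such agreement is partly built in. The share over all genes measured in a gate was not computed.

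Among the genes named by size, those of airway epithelium rested on a handful of cells. Bpifa1, a secreted protein of airway lining, stood at 38.3 CPM in WT and 441 CPM in KO, but 3 KO cells held 99.4% of its UMIs. The club cell genes Scgb3a2 (ratio 3.35) and Cyp2f2 (9.16) had 93.6% and 85.4% of their KO UMIs in 3 cells. In Y-positive cells Bpifa1 lay at 0.0827 and Scgb3a2 at 0.528, the opposite direction. The granule genes Camp, which encodes cathelicidin, and Ngp had ratios of 9.84 (8.60 to 11.3) and 4.88 (4.44 to 5.37), from 7 and 19 WT cells and 16 and 30 KO cells.

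Genes of vessel and matrix cells among those named were spread over more cells. Mgp, which encodes matrix Gla protein, stood at 124 CPM in WT and 371 CPM in KO (ratio 2.99, 2.89 to 3.09), and its 3 leading KO cells held 22.2% of the UMIs. Inmt, a methyltransferase of lung stroma, was at 3.63 (3.39 to 3.89), Sparcl1 at 4.61 (4.18 to 5.11), Fmo2 at 4.40 (3.98 to 4.86) and the metalloproteinase inhibitor Timp3 likewise higher, each past the fold in both Xist-positive and Y-positive cells. Cells with over 0.5% of UMIs from epithelial, endothelial, fibroblast or erythroid markers made up 1.11% of WT (58 cells) and 2.16% of KO cells (102 cells). Summed endothelial markers were 42.3 and 75.7 CPM, fibroblast markers 86.7 and 146, epithelial markers 1712 and 2582, and erythroid markers 299 and 963. Without those cells 437 genes lay higher and 125 lower, and Mgp stood at 2.41.

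On the lower side, the interferon-induced chemokine Cxcl10 stood at 128 CPM in WT and 42.2 CPM in KO, a ratio of 0.330 (0.311 to 0.350), and the cytokine Tnf at 175 CPM in WT and 95.7 CPM in KO, a ratio of 0.546 (0.523 to 0.569). For Cxcl10 the sexes differed: the ratio was 0.0915 in Xist-positive and 1.36 in Y-positive cells. Jchain, the joining chain of secreted IgA and IgM and a plasma cell gene, was at 0.571 (0.559 to 0.582) with 0.313 and 3.60 in the sexes. The stress cytokine Gdf15 was at 0.586 (0.571 to 0.603). Fabp4, a fatty acid carrier of alveolar macrophages, was at 0.619 (0.594 to 0.645); within the alveolar macrophage gate it was at 0.862, and that gate held the smaller share of KO cells.

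A few genes differed in most lineages at once. Of 3995 genes measured in at least 4 of the 6 gates, 6 lay past the fold on the higher side in 4 or more gates and 6 on the lower side (0.150% each). Those higher were Lars2, Slc9a3r1, Gsn, Scgb1a1 and the predicted genes Gm42418 and Gm47283, and those lower were Erh, Cxcl10, Hist1h2ap, the pseudogenes Gm10076 and Rpl27-ps3, and mt-Nd4l.

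Lars2, the mitochondrial leucyl-tRNA synthetase, was past the fold in 5 gates. It stood at 186 CPM in WT and 516 CPM in KO in T cells, a ratio of 2.77 (2.60 to 2.95), and at 2.97 (2.69 to 3.27) in B cells, 2.88 (2.44 to 3.42) in NK cells, 2.40 (2.18 to 2.65) in neutrophils and 1.76 (1.69 to 1.83) in alveolar macrophages. Dendritic cells lay just short of the fold at 1.48 (1.21 to 1.81). In Xist-positive and Y-positive cells of the T gate the ratios were 2.77 and 2.66. Gm42418, a predicted gene on chromosome 17 that overlaps ribosomal RNA precursor sequence, moved alongside it, from 6077 CPM in WT and 14115 CPM in KO over all cells and with ratios of 1.55 to 3.40 over the gates. Their part in one another was not tested. In the tumor pair, Lars2 was at 1.14 and Gm42418 at 1.09 over all cells, so neither was past the fold there.

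Erh, a small nuclear protein that takes part in RNA processing, was lower in every gate: 0.484 (0.401 to 0.582) in B cells, 0.535 (0.367 to 0.769) in dendritic cells, 0.569 (0.384 to 0.838) in neutrophils, 0.618 (0.457 to 0.831) in NK cells, 0.657 (0.583 to 0.741) in T cells and, just inside the fold, 0.680 (0.599 to 0.771) in alveolar macrophages. In the tumor pair it was at 0.467. Hist1h2ap, a replication-dependent histone H2A gene, was at 0.213 (0.169 to 0.268) in B cells, 0.369 (0.243 to 0.549) in NK cells, 0.503 (0.434 to 0.582) in T cells and 0.511 (0.364 to 0.710) in alveolar macrophages, where it had 123 and 54 UMIs and the sexes went opposite ways, 1.51 in Xist-positive and 0.217 in Y-positive cells. It shares near-identical sequence with other histone H2A genes, so its reads may be split among them by the counting. The mitochondrially encoded mt-Nd4l, a complex I subunit, lay at 0.478 to 0.639, while the 13 mitochondrially encoded genes as a list had a median log2 ratio of 0.21 in T cells and 0.25 in alveolar macrophages.

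Gsn, the actin-severing protein gelsolin, was past the fold in 4 gates but unevenly. In neutrophils it stood at 106 CPM in WT and 251 CPM in KO (ratio 2.37, 2.05 to 2.75) and in alveolar macrophages at 2.04 (1.87 to 2.23), and it was past the fold in both sexes in these gates. In neutrophils 1 KO cell held 35.2% of its UMIs, and the ratio was 1.58 without the leading cell of each library and 1.24 without cells over 0.5% non-immune UMIs. In alveolar macrophages 3 KO cells held 39.2%, and with the marker-list gate the ratio was 1.39, short of the fold. In T cells the ratio of 2.16 (1.81 to 2.58) joined 0.319 in Xist-positive and 26.6 in Y-positive cells, and 3 KO cells held 75.9% of the UMIs. Dendritic cells had the opposite direction, 0.771 (0.610 to 0.971). Scgb1a1, the secretoglobin of club cells, was present in every gate and was 11.9 (8.88 to 16.4) in B cells and 7.86 (6.31 to 9.90) in neutrophils; without cells over 0.5% non-immune UMIs its level over all cells was 34.9 CPM in WT and 155 CPM in KO.

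**Figure D3:**
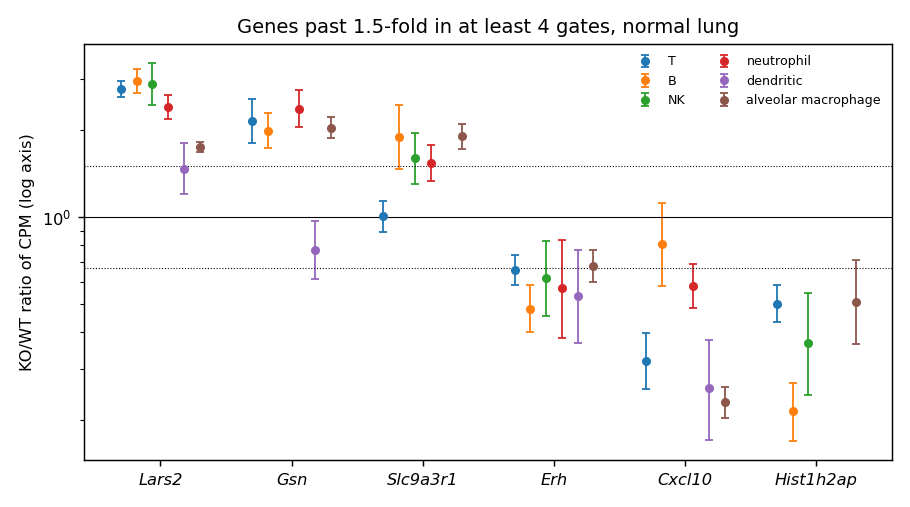
KO/WT ratio of CPM (y axis, log scale) in each lineage gate of normal lung for 6 genes past 1.5-fold in at least 4 gates (x axis). Points are shown where a gene had at least 100 UMIs over both libraries, bars are exact 95% counting intervals and dotted lines mark 1.5-fold; Erh lies below 1 in all 6 gates (0.484 to 0.680), Slc9a3r1 is at 1.01 in T cells and 1.91 in alveolar macrophages.

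Alveolar macrophages are the resident phagocytes of the air space, which clear surfactant lipid and make cytokines on stimulation. In their gate (824 WT and 603 KO cells) the KO library held less RNA of several inflammatory cytokines, while the genes of a preset lipid and scavenger list differed little. Of 8753 genes, 169 (1.93%) lay past the fold on the higher side and 79 (0.903%) on the lower. With gates drawn from marker lists the split was 79 higher and 139 lower, and without cells over 0.5% non-immune UMIs 99 and 73.

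Cxcl10 stood at 169 CPM in WT and 38.9 CPM in KO (ratio 0.229, 0.203 to 0.259) and Tnf at 322 CPM in WT and 144 CPM in KO (0.448, 0.419 to 0.480). The interleukin Il1a was at 111 CPM in WT and 39.0 CPM in KO (0.351, 0.309 to 0.398), and the neutrophil-attracting chemokine Cxcl1 at 142 CPM in WT and 52.3 CPM in KO (0.369, 0.331 to 0.412). Irf1, a transcription factor of the interferon response, was at 0.560 (0.484 to 0.646). These 5 were the lower genes that the ranking by size named. Of 15 measured genes of the inflammatory list (cytokines, chemokines, Nfkbia and Ptgs2), 6 lay past the fold on the lower side and 1 on the higher, and the median log2 ratio was -0.23 against 0.00 over all genes. The higher member was Ptgs2, the inducible cyclooxygenase, at 9.94 CPM in WT and 30.3 CPM in KO (3.05, 2.40 to 3.91).

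The lower cytokine levels belonged mainly to Xist-positive cells. In these, the median log2 ratio of the list was -0.89, with 9 members past the fold on the lower side; in Y-positive cells it was 0.01, with 2 lower and 3 higher. Cxcl10, which is not on the list, went from 318 CPM in WT to 21.7 in KO among Xist-positive cells, and was 53.7 and 51.2 CPM among Y-positive cells. Tnf had a ratio of 0.237 in Xist-positive and 1.04 in Y-positive cells, and Irf1 0.323 and 0.980. Il1a (0.219 and 0.648) and Cxcl1 (0.293 and 0.562) were past the fold in both. The difference between the sexes was not tested, since each sex of a library may be 1 animal. Cxcl10 was found in 110 of 824 WT and 41 of 603 KO cells, a minority of both, and Tnf in 433 and 302.

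**Figure D4:**
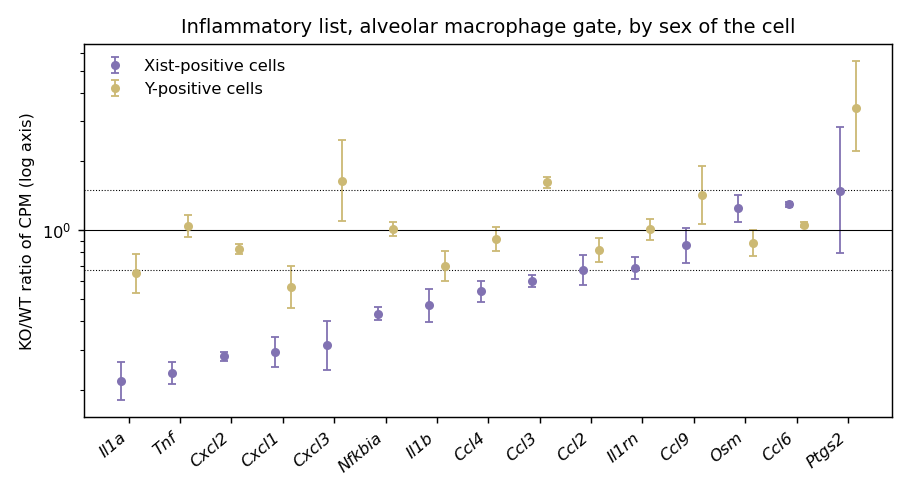
KO/WT ratio of CPM (y axis, log scale) in the alveolar macrophage gate for the 15 measured genes of the inflammatory list (x axis), in Xist-positive (purple) and Y-positive (yellow) cells. Bars are exact 95% counting intervals and dotted lines mark 1.5-fold; Tnf lies at 0.237 in Xist-positive and 1.04 in Y-positive cells, and Il1a and Cxcl1 lie below the lower line in both.

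All 20 genes of the alveolar macrophage lipid and scavenger list were measured and none was past the fold in either direction. They ranged from 0.812 for the fatty acid carrier Fabp1 to 1.29 for the scavenger receptor Marco, with a median log2 ratio of -0.01. Spp1, which encodes osteopontin, stood at 396 CPM in WT and 468 CPM in KO (1.18, 1.13 to 1.24). The largest ratios on the higher side were Reg3g, Bpifa1, Cyp2f2, Ltf and Scgb3a2, none of them alveolar macrophage genes. Reg3g, an antibacterial lectin of airway epithelium, had 0 UMIs in WT and 726 in KO, 99.7% of them in 3 cells, and Bpifa1 had 5 and 14053 UMIs, 99.9% in 3 cells. Summed epithelial markers in the gate were 171 CPM in WT and 3294 CPM in KO and erythroid markers 5.54 and 945. Among higher genes of both sexes, named after their values had been seen, was Thbs1, which encodes the matrix protein thrombospondin 1, at 3.66 (3.02 to 4.45). It came from 20 WT and 30 KO cells, with 75.5% and 63.0% of the UMIs in 3 cells, and neutrophil markers in the gate summed to 133 and 307 CPM; their part in it was not tested.

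Neutrophils carry preformed granules whose proteins are made mainly while the cells mature in bone marrow. In the neutrophil gate (539 WT and 679 KO cells) granule and S100 genes were higher in KO. Of 4443 genes, 134 (3.02%) lay past the fold on the higher side and 229 (5.15%) on the lower. The split depended on scaling, with 221 higher and 138 lower under TMM factors and 254 and 125 under median-of-ratios size factors. Relative to those factors, the CPM scale shifts every log2 ratio of this gate by -0.10 and -0.12.

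Of 15 measured genes of the granule and maturation list, 7 were past the fold on the higher side and 0 on the lower, with a median log2 ratio of 0.56 against -0.05 over all genes. The list's share of UMIs was 5.58% in WT and 8.33% in KO, and S100a8 and S100a9 held most of it in both. S100a8 and S100a9, the subunits of calprotectin, stood at 21314 CPM in WT and 31416 CPM in KO (1.47, 1.46 to 1.49) and at 29221 CPM in WT and 43997 CPM in KO (1.51, 1.49 to 1.52). Lcn2, an iron-siderophore binding granule protein, was at 459 CPM in WT and 959 CPM in KO (2.09, 1.95 to 2.25). These 3 were past the fold in both sexes, at 1.96 and 1.76, 1.97 and 1.76, and 4.10 and 1.95. Cells with neither or both kinds of sex-linked RNA (284 and 21 in WT, 331 and 28 in KO) entered only the gate's own ratio. By that ratio S100a8 was short of the fold. The list's median log2 ratio was 0.94 in Xist-positive and 0.81 in Y-positive cells.

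Secondary granule genes had large ratios from few cells. Ltf, which encodes lactoferrin, was at 8.32 (6.40 to 11.0), Camp at 7.33 (6.41 to 8.42) and Ngp at 3.70 (3.37 to 4.08), with UMIs in 11, 6 and 8 WT cells and 11, 9 and 22 KO cells. These are genes of immature neutrophils, and their ratios compare few cells. Scgb1a1 (7.86, 6.31 to 9.90) lay between them and was spread over 53 WT and 315 KO cells. Retnla, a resistin-like protein of alternatively activated macrophages, had 94.7% of its KO UMIs in 3 cells.

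On the lower side of the neutrophil gate, the 4 genes named by size were Cxcl9, Cxcl13, Il6 and Saa3, with ratios of 0.0252 to 0.364. Each came from 4 to 15 WT cells, and 3 WT cells held between 72.4% and 99.2% of the UMIs. With the marker-list gate Il6 lay the opposite way, at 11.2, and Cxcl9 at 0.545. Of 11 heat shock genes 2 were past the fold on the lower side and all 11 lay below 1: the median log2 ratio was -0.36, and Hspa1a (2618 CPM in WT and 1653 CPM in KO, 0.632, 0.608 to 0.656) and Hspa1b (0.643, 0.620 to 0.667) were past the fold. Under TMM factors they were at 0.675 and 0.687, just short of it, and with the marker-list gate at 0.727 and 0.707. For these stress-induced HSP70 genes the sexes went opposite ways, 1.21 and 0.417 for Hspa1a. Ribosomal protein genes took 13.9% of UMIs in WT and 10.9% in KO, with a median log2 ratio of -0.35. Of 6 measured MHC class II genes, H2-Aa (968 CPM in WT and 612 CPM in KO, 0.632, 0.594 to 0.673) was past the fold and the median was -0.52; H2-Aa was at 0.676 under TMM factors and 0.817 with the marker-list gate, both short of the fold. Monocyte markers summed to 938 CPM in WT and 837 in KO in this gate, and interstitial macrophage markers to 1136 and 996. Erythroid markers differed more, 1607 and 33.7 CPM, as did epithelial markers, 51.9 and 329, and T markers, 141 and 80.1; their part in these levels was not tested.

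In the T gate (1279 WT and 1253 KO cells) several genes of the inflammatory list were lower in KO, more so in Y-positive than in Xist-positive cells. Of 7916 genes, 100 (1.26%) lay past the fold on the higher side and 152 (1.92%) on the lower. None of the 10 naive T cell genes was past the fold, and of 13 cytotoxic granule genes 1 was, Gzmb on the lower side at 0.644, and at 0.759 with the marker-list gate. Of the inflammatory list, 12 members were measured, 6 past the fold on the lower side and 2 on the higher, with a median log2 ratio of -0.58. In Xist-positive cells 3 were lower and 4 higher, with a median of -0.19. In Y-positive cells 6 were lower and 2 higher, with a median of -0.78. Ccl4, a chemokine of activated T and myeloid cells, stood at 267 CPM in WT and 83.9 CPM in KO (0.314, 0.287 to 0.343), with 0.448 in Xist-positive and 0.289 in Y-positive cells. Ccl3 was at 0.395 (0.343 to 0.453), but at 1.58 in Xist-positive cells and 0.733 with doublets left out, and the interleukin-6 family cytokine Osm at 0.348 (0.250 to 0.478).

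Some RNA of other cells in the T gate was lower in KO and some higher. Lyz2, the macrophage lysozyme, stood at 617 CPM in WT and 291 CPM in KO (0.472, 0.448 to 0.496) and Apoe at 553 CPM in WT and 365 CPM in KO (0.660, 0.629 to 0.692), both past the fold in both sexes and named after their values had been seen. With the marker-list gate Lyz2 was at 0.646, still past the fold, and Apoe at 0.833, short of it. Monocyte markers summed to 420.2 and 432 CPM, dendritic markers to 313 and 347 and interstitial macrophage markers to 355 and 256. Summed neutrophil markers in the T gate were 215 and 98.0 CPM and erythroid markers 72.2 and 1367 CPM. By size, the higher genes of the T gate were Mgp, Cxcl13, Lars2, Gsn and the metallothionein Mt1 (1.84, 1.67 to 2.03, and 1.40 with the marker-list gate), and 3 KO cells held 97.2% of the Mgp and 79.1% of the Cxcl13 UMIs. The lower genes were Retnla, whose 432 WT UMIs all lay in 3 cells, Hist1h2ap and Phlda1, an early response gene, at 128 CPM in WT and 70.2 CPM in KO (0.550, 0.494 to 0.612).

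In the B gate (722 WT and 646 KO cells), 168 of 5624 genes (2.99%) were past the fold on the higher side and 68 (1.21%) on the lower, but the split depended on scaling, with 107 and 125 under TMM factors and 120 and 105 under size factors. None of 11 measured B cell activation genes was past the fold. Named by size on the lower side were the histone genes Hist1h2ap, at 126 CPM in WT and 26.9 CPM in KO, and Hist1h2ae, at 0.340 (0.277 to 0.415), whose reads may be split among near-identical copies. Also lower was Txndc5, a disulfide isomerase of the endoplasmic reticulum that antibody-secreting cells use, at 201 CPM in WT and 95.5 CPM in KO (0.476, 0.416 to 0.544). The plasma cell markers given above moved the same way in this gate, and their part in it was not tested. Phlda1 was at 0.419 (0.319 to 0.546). Rgs1, a brake on chemokine receptor signals, was at 0.480 (0.413 to 0.557), with 1.18 in Xist-positive and 0.148 in Y-positive cells and 0.780 without the leading cell of each library. On the higher side the cell cycle inhibitor Cdkn1a was at 1.96, and Inmt (2.74, 2.16 to 3.49) had 96.9% of its KO UMIs in 3 cells.

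NK cells, the lineage with the highest WT Rab37 level, are killers that release perforin and granzymes from lytic granules. In their gate (285 WT and 212 KO cells) 67 of 3021 genes (2.22%) were past the fold on the higher side and 52 (1.72%) on the lower, with 51 and 73 under size factors. None of the 11 measured cytotoxic granule genes was past the fold, and 10 lay below 1, with a median log2 ratio of -0.22 against 0.00 over all genes. Granzyme B (Gzmb) stood at 1502 CPM in WT and 1231 CPM in KO (0.819, 0.762 to 0.881) and perforin (Prf1) at 966 CPM in WT and 884 CPM in KO (0.915, 0.837 to 0.999). The lectin receptors Klrg1 (0.754, 0.613 to 0.924) and Klrd1 (0.786, 0.704 to 0.877) were the lowest of the list. Besides Lars2, Tcf4, an E protein transcription factor, was named by size at 2.24 (1.59 to 3.18). Apoe (2.41, 1.92 to 3.04) rested on 19 WT and 16 KO cells, and its ratio was below 1 in each sex.

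The dendritic gate was the smallest (93 WT and 74 KO cells), and 92 of 2124 genes (4.33%) were past the fold on the higher side and 58 (2.73%) on the lower, with 70 and 71 under size factors. Of 13 measured subset and maturation genes, 4 were higher and 1 lower. Fscn1, the actin bundler of mature dendritic cells, stood at 19.8 CPM in WT and 223 CPM in KO (11.3, 7.03 to 19.2), with UMIs in 4 and 7 cells, and Ccr7, the lymph node homing receptor, at 1.54 (1.29 to 1.84). Siglech (1.92), Ly6d (4.44, 3.27 to 6.13) and Ccr9 (3.17, 2.28 to 4.48), genes of plasmacytoid dendritic cells, were higher too, but lay below 1 in Y-positive cells, at 0.619, 0.739 and 0.253. Ccl5, a T cell attracting chemokine named after its values had been seen, was at 172 CPM in WT and 1063 CPM in KO, from 10 and 15 cells, and past the fold in both sexes (6.04 and 4.79). Mgl2, a lectin of type 2 conventional dendritic cells, was at 0.587 (0.428 to 0.799), and Cxcl10 at 0.256 (0.170 to 0.376). With the marker-list gate Ccr7 was at 0.883 and Mgl2 at 0.904, short of the fold, Cxcl10 at 0.545 and Ly6d at 17.6. None of 8 MHC class II genes was past the fold. With so few cells, a change in the mix of subsets and a change within a subset cannot be told apart.

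The sexes and the tumor pair were set beside these differences. The sexes are parts of the same 2 libraries, so agreement between them is partly built in and is not a repeat. Of 9905 genes measured in both sexes over all cells, 209 (2.11%) were past the fold on the higher side in both, 23 (0.232%) on the lower side in both and 25 in opposite directions. In the tumor pair every sexed WT cell was Xist-positive, while KO had 33 Xist-positive and 1666 Y-positive cells, so sex and genotype cannot be told apart there, and WT had 647 cells. Of the 697 higher genes, 319 could be measured in tumor, and 121 of these (37.9%) were past the fold the same way and 51 (16.0%) the opposite way, where 12.9% of all genes measured in tumor were higher and 16.7% lower. Of the 122 lower genes 63 could be measured, with 28 (44.4%) the same way and 13 (20.6%) the opposite way. In the neutrophil gate 54 of 130 higher genes were past the fold the same way in tumor (41.5%, where 17.7% of all were higher). In the alveolar macrophage gate 6 of 21 were the same way (28.6%, where 20.5% of all were higher). Another 11 were opposite (52.4%, where 8.80% of all were lower). In the dendritic gate 3 of 14 were the same way (24.6% of all were higher) and 6 opposite (14.2% of all were lower). The same way were 4 of 9 in T cells, 10 of 17 in B cells and 1 of 6 in NK cells, where 16.3%, 21.3% and 14.4% of all were higher.

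Past the fold in both sexes and in tumor were 38 higher and 11 lower genes over all cells. These were among 117 higher and 22 lower genes past it in both sexes and measured in tumor. Besides Slc9a3r1, the higher set held neutrophil genes (S100a8, S100a9, Lcn2, Stfa2l1), vessel and matrix genes (Cavin2, Col6a2, Gas6) and Thbs1. The neutrophil gate held 36.0% of tumor WT and 57.1% of tumor KO cells, and 10.3% and 14.4% in normal lung. In these sums the number of cells captured and the RNA per cell cannot be told apart. The lower set, leaving out pseudogenes and mitochondrially encoded genes, was Gstp1, Hist1h2ap, Hist1h3d, Erh, Retnla, Pstpip2, Fabp4 and Nt5m. The genes of both sets were named after their values had been seen. With all cells of normal lung summed, Hist1h3d (0.678) and Nt5m (0.683) were short of the fold, and 3 WT cells held 67.8% of the Retnla UMIs. Gstp1, a glutathione transferase that detoxifies electrophiles, stood at 28.3 CPM in WT and 11.7 CPM in KO (0.411, 0.366 to 0.462), with 0.403 in Xist-positive cells, 0.457 in Y-positive cells and 0.291 in tumor. It was at 0.370 in T cells and 0.431 in alveolar macrophages; it has a near-identical neighbour, Gstp2, between which the counting may split reads. Fabp4 was at 0.223 in tumor. In neutrophils Glrx, a glutaredoxin, was at 2.02 (1.78 to 2.31) and 1.66 in tumor, the stefin Stfa2l1 at 1.65 (1.52 to 1.78) and 1.92, and Gdf15 at 0.374 (0.310 to 0.450) and 0.308. With the marker-list gate Stfa2l1 was at 1.39 and Gdf15 at 0.883, both short of the fold; Gdf15 came from 35 WT and 27 KO cells, and 1 cell held 52.6% of its KO UMIs. Retnla over all cells was at 0.696 without the leading cell of each library. The chemokines Cxcl1 of alveolar macrophages and Ccl4 of T cells lay the opposite way in tumor, at 14.0 and 9.44.

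**Figure D5:**
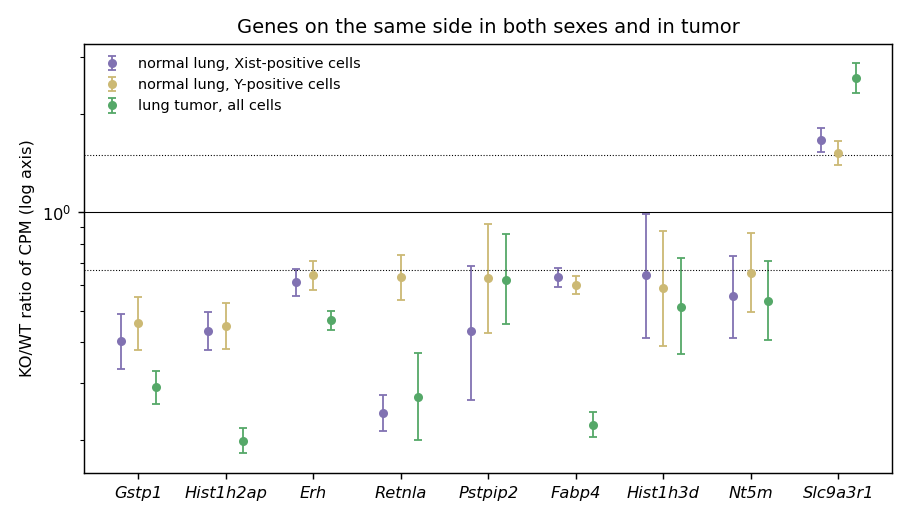
KO/WT ratio of CPM over all cells (y axis, log scale) for the 8 genes lower, and for Slc9a3r1 as the higher example, in normal lung Xist-positive cells (purple), normal lung Y-positive cells (yellow) and the lung tumor pair (green). Bars are exact 95% counting intervals and dotted lines mark 1.5-fold; Gstp1 lies at 0.403, 0.457 and 0.291, and Slc9a3r1 at 1.66, 1.52 and 2.58.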

How the data were processed

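The 2 libraries held single-cell 3' RNA of live CD45-positive lung cells, 1 library per genotype. The authors deposited unnormalized UMI counts for 31053 features in each barcode, with software version 3.0.1 per the file headers of both libraries. Per the submitters' processing notes the genome was mm10; no aligner is named in the sources used here. No barcode had under 500 UMIs, so a selection came before deposit. GENCODE vM21 held 30934 of the feature identifiers (99.6%) and gave the coordinates.

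Of 5594 WT and 5063 KO barcodes, 75 and 105 were removed for too few genes (under 200) and 314 and 268 for a mitochondrial share over 10%. Counts were summed over cells and scaled to CPM. Cells positive for several gate genes (10.8% and 9.82%) entered no gate, and 17.8% and 16.8% had none. Intervals are exact: conditional binomial for ratios, Clopper-Pearson for shares. Cells were called Xist-positive or Y-positive from Xist and Ddx3y, Eif2s3y, Kdm5d and Uty. Cells with neither kind of RNA (1425 in WT and 1341 in KO) or both kinds (203 and 180) were left out of the sex readings. Doublets were called with Scrublet in scanpy 1.11.5 and kept. TMM factors came from edgeR 4.0.16 in R 4.3.3, which served for scaling alone; other steps used Python 3.11.15, numpy 2.4.6, scipy 1.17.1, pandas 2.3.3 and matplotlib 3.10.9.

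The genes, gene lists and gates were chosen with earlier results of these data known. Named genes were Rab37, its neighbours within 1 Mb that were past the fold in any population, and by size up to 10 genes each way over all cells and 5 per gate. The latter needed 50 CPM in the higher library, a whole counting interval past 1.5-fold and, in a gate, at least 1/10 of the gene's highest level over gates. Genes past the fold in 4 or more gates and up to 3 members per list were also named. The rankings omitted predicted genes, sex-linked genes, antigen receptor and hemoglobin genes, and mitochondrial and ribosomal protein genes. A gene that the rankings chose is not reported here. Further genes are said to be named after their values had been seen. Alternatives were other minimum counts, TMM and size factors, the mean of per-cell CPM, doublets left out, at most 5% mitochondrial UMIs, each sex alone or equally weighted, marker-list gates (at least 3 markers), cells of several gates kept, KO weighted to WT gate shares, the leading cell left out and, added after seeing the data, cells over 0.5% non-immune UMIs left out. On counts drawn at random from the real totals, the calls recovered 100% of genes raised 2-fold over all cells. The lowest recovery in a gate was 95.1%, for genes lowered 2-fold in neutrophils. The draws held no differences between cells or libraries, so they cannot show how the calls fare where few cells hold the UMIs.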

Additional observations from a re-analysis of the deposited data

Results flagged for a closer look

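Several genes differed by genotype in opposite directions in the 2 sexes of the normal lung libraries, or in normal lung and tumor, with every counting interval on its own side of 1.5-fold. None of these differences was tested, since each comparison rests on 1 library per genotype, and in tumor sex and genotype cannot be told apart.

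Between the sexes, the airway genes led. Over all cells Bpifa1 had a ratio of 239 in Xist-positive and 0.0827 in Y-positive cells, and Scgb3a2 131 and 0.528, with between 88.5% and 99.4% of the UMIs of a library in 3 cells. In the T gate, Scgb1a1 stood at 0.495 and 40.4 and Gsn at 0.319 and 26.6. The plasma cell gene Jchain was at 0.313 in Xist-positive and 3.60 in Y-positive cells, and Cxcl10 of neutrophils at 0.121 and 5.05.

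Between normal lung and tumor, genes on the lower side in normal lung lay on the higher side in tumor. The tumor ratio was 2.47 for Tnf over all cells, 14.0 for Cxcl1 of alveolar macrophages, 4.82 for Phlda1 of B cells, and 2.27 for Saa3 of neutrophils. Genes on the higher side in normal lung lay lower in tumor: Mgp over all cells at 0.0444, Lars2 of B cells at 0.494, Apoe of NK cells at 0.208, Tmem123 of dendritic cells, a membrane mucin that was at 2.59 (2.03 to 3.32) in normal lung, at 0.198, and Gsn of alveolar macrophages at 0.491.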

How the results depend on the processing

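No paired analysis was possible because each genotype had 1 library. The Rab37 ratio kept its side of the fold under each alternative tried for it, between 0.0262 and 0.0502. The counts of genes past the fold depended most on the minimum count. With a minimum of 300 UMIs they were 360 over all cells, 64 in T, 48 in B, 20 in NK, 117 in neutrophil, 23 in dendritic and 74 in alveolar macrophage cells. With 1 UMI in each library as the only minimum they were 4075, 2973, 3219, 3049, 3846, 3832 and 2772 in the same order. The share past the fold moved as well: over all cells it was 3.64% at 300 UMIs, 6.90% at 100 and 22.9% at 1 UMI in each library; the cause was not tested. Keeping cells of several gates gave 410 in T, 433 in B, 186 in NK and 266 in dendritic cells. Equal weight to the sexes gave 208 in NK cells, and at most 5% mitochondrial UMIs gave 164 in alveolar macrophages. The other alternatives left these counts within 1.5 times.

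Named genes reversed mainly when 1 sex was taken alone, which leaves fewer cells; beyond that the cause was not tested. In Xist-positive cells alone the ratio was 0.384 for Apoe in NK cells; 1.58 for Ccl3, 1.02 for Cd300a, 0.319 for Gsn and 0.127 for Mgp in T cells; 0.756 for Gsn and 1.18 for Rgs1 in B cells; 1.51 for Hist1h2ap in alveolar macrophages; 1.21 for Hspa1a, 1.04 for Hspa1b and 0.0937 for Retnla in neutrophils; and 1.15 for Txndc16 in dendritic cells. In Y-positive cells alone it was 0.0827 for Bpifa1, 1.36 for Cxcl10, 3.60 for Jchain, 0.528 for Scgb3a2 and 0.570 for Smim6 over all cells. By gate it was 0.454 for Apoe in NK cells, 0.253 for Ccr9, 0.739 for Ly6d and 0.619 for Siglech in dendritic cells, 5.05 for Cxcl10 in neutrophils, 0.464 for Cxcl13 and 2.43 for Retnla in T cells, and 1.04 for Tnf in alveolar macrophages. With marker-list gates it was 1.82 for Cxcl10 and 11.2 for Il6 in neutrophils and 1.13 for Txndc16 in dendritic cells. TMM factors reversed none of the named genes they could be computed for. Neither did leaving out doublets, the leading cell or cells over 0.5% non-immune UMIs. Many values moved out of their counting interval without reversing. In Xist-positive cells alone 70 of 115 moved and 12 more reversed, and in Y-positive cells alone 68 of 120 moved and 13 more reversed. With marker-list gates 45 of 100 moved, without the leading cell 33 of 118 and without the non-immune cells 22 of 121. TMM factors moved 6 of 122, as did leaving out doublets.

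Depth limited the NK and dendritic gates, where 3021 and 2124 genes reached 100 UMIs against 11877 over all cells. The intervals cover counting alone. Differences between animals, digestions, sorts or libraries add to every ratio by an amount that 1 library per genotype cannot show.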

Other observations

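Immediate early genes are among those that tissue digestion can induce. None of these 16 genes, such as Fos and Jun, was past the fold over all cells, with a median log2 ratio of 0.05, and 1 was in B cells. In T cells 15 of the 16 lay below 1, none past the fold, and their median was -0.26; in alveolar macrophages it was -0.14. Nuclear genes of oxidative phosphorylation had a median of -0.14 over 72 genes in all cells, -0.27 in neutrophils and -0.12 in alveolar macrophages, and none past the fold outside the neutrophil (4 of 65, all lower, where 5.15% of all genes were) and NK gates (1 of 67, where 1.72% were). MHC class I and immunoproteasome genes had medians between -0.27 in neutrophils and 0.08 in dendritic cells, with 1 gene past the fold, in neutrophils.

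Some further genes were past the fold in both sexes of a gate and with the marker-list gate. They were named after their values had been seen and are given as values. In alveolar macrophages the receptor Notch1 stood at 0.539 (0.455 to 0.637), Pdk4, a kinase that restrains pyruvate use, at 139 CPM in WT and 85.8 CPM in KO (0.619, 0.564 to 0.679), and the apolipoprotein Apoc1 at 0.610 (0.530 to 0.702). In neutrophils Plac8 was at 944 CPM in WT and 617 CPM in KO (0.653, 0.613 to 0.695). In NK cells the surface protein Cd7 was at 1.52 (1.30 to 1.79).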
